A study of Mus musculus with 8 samples.

Results

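The 45 genes described here encode parts of the photoreceptor cilium: the intraflagellar transport (IFT) trains and their motor, the Bardet-Biedl syndrome (BBS) complex and the connecting cilium. A further group, called lipidated cargo here, holds carriers of lipid-modified proteins, the GTPases Arl3 and Arl13b, and Tulp1. All 45 genes were taken by gene symbol from the deposited table, in which each of the 45 symbols had 1 row, out of 56465 features in all. The retinas came from mice of strain C57Bl/6J that were wild type (WT, replicates 3, 4, 5 and 7) or expressed human transferrin, the plasma iron carrier (TG, replicates 2, 5, 6 and 8). Every retina in both groups had been detached by 10 µl of sodium hyaluronate injected beneath it and was collected at day 4, so the series holds no attached retina for comparison. Neither the transgene's promoter nor the age of the mice was stated in the sources used. The series title names the question, whether transferrin protects the detached retina. Males and right eyes numbered 3 each of 4 in WT and 2 each of 4 in TG. Nothing in the labels states that each retina came from a different mouse. WT 3, 4 and 5 were right eyes of males and WT 7 was a left eye of a female. No WT retinas can therefore be the left and right eye of the same mouse. TG 2 and TG 5, both male, were a left and a right eye, and so were TG 6 and TG 8, both female. Whether either pair came from the same mouse is not stated. The p-values reflect only how far these samples vary, and in TG part of that may be within a mouse.

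A photoreceptor makes its light-sensing outer segment from a primary cilium, and everything the outer segment holds must pass through the narrow connecting cilium. IFT-B trains driven by kinesin-2 carry cargo outwards, IFT-A trains return it, and the BBSome removes proteins that do not belong in the outer segment. Lipid-modified phototransduction proteins travel instead on the soluble carriers Unc119 and Pde6d, which the small GTPase Arl3 unloads. Inherited loss of many of these genes causes retinal degeneration, alone or as part of syndromes such as Bardet-Biedl, Joubert, Senior-Loken and Usher.

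RFX transcription factors bind a palindromic element, the X-box, that is known from the promoters of many ciliary genes. RefSeq promoter windows on GRCm38.p6, from 250 bases before to 50 after the start of transcription, were at hand for 41 of the 45 genes (49 windows). They were searched for GTTNCC followed after 0 to 3 bases by GGNAAC, a pattern that reads the same on both strands, with at most 1 mismatch among its 10 specified bases. Of the 49 windows 13 held a match (26.5%), against 5.44% of all 32851 promoter windows, and 4 held it with no mismatch (8.16% against 0.804%). The 4 windows with no mismatch, shown because they carry the feature most clearly, belong to a BBSome gene, 2 transition zone genes and an IFT-B gene, and the capitals mark the match.
Bbs7 (chr3:36613479-36613528, minus strand): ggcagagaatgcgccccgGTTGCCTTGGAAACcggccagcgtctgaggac
Ahi1 (chr10:20952562-20952587, plus strand): gtctgaGTTACCTAGGCAACagcggc
Mks1 (chr11:87853185-87853210, plus strand): gtctccGTTGCCAGGGGAACgaggca
Ift57 (chr16:49699216-49699264, plus strand): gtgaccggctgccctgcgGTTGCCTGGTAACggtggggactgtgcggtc
The centre of the match lay 114 bases before the start in Bbs7, 54 before it in Ift57, 17 before it in Mks1 and 28 after it in Ahi1.

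One mismatch was found in Bbs1, Bbs4, Cc2d2a, Ift52, Kif17, Lca5, Nphp4 and Pde6d. The 3 whose match lay more than 50 bases before a start are shown, a kinesin gene, a connecting cilium gene and a transition zone gene. The same Lca5 match was counted in overlapping windows, its centre lying 53 and 25 bases before their starts. The Kif17 and Nphp4 matches belong to starts inside the measured features, which begin at 138250411 and 152476704.
Kif17 (chr4:138262160-138262208, plus strand): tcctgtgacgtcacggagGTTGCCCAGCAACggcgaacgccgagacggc
Lca5 (chr9:83441127-83441177, minus strand): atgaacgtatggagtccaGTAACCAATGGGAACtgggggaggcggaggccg
Nphp4 (chr4:152477893-152477942, plus strand): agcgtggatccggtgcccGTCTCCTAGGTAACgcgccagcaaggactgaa
The photoreceptor factor CRX binds TAATCC-type sites. That motif, searched on both strands (GGATTA on the other one), was in 3 of the 49 windows (6.12%), close to the 7.06% of all windows, and the 3 genes were Unc119, Rpgrip1 and Bbs1. Rpgrip1, which tethers Rpgr to the connecting cilium, is shown because its site centre lay 25 bases before the start.
Rpgrip1 (chr14:52110857-52110898, plus strand): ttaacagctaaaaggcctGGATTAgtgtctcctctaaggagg
A match describes the letters of a window and shows no binding.

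The libraries held 61535690 to 75866423 recovered reads, and their tissue label was checked against markers. Rod markers summed to 6350299 to 7266882 normalized reads in WT and 5524829 to 8752584 in TG, and cone, bipolar, amacrine and Mueller glia markers were present in all 8 libraries. WT 3 stood apart in markers of lens, pigment epithelium and oligodendrocytes, and TG 6 in those of lens. Lens markers summed to 24864 in WT 3 and 20374 in TG 6, against 60.2 to 5245 (TG 5) in the other libraries. Pigment epithelium markers summed to 104124 in WT 3, with Rpe65 at 7153, against 5985 to 46848 (TG 2) elsewhere. Oligodendrocyte markers summed to 10754 in WT 3 against 227 to 492 elsewhere. A fit without WT 3 and TG 6 still holds TG 2 and TG 5. For the genes given in every library below, the log2 fold change without WT 3 and TG 6 was -0.59 for Ttc8, -0.61 for Rpgr, -0.33 for Cep290, -0.48 for Rpgrip1, -0.73 for Wdr35, -0.59 for Kif3b, 0.21 for Ift27, -0.31 for Bbs12, -0.15 for Pde6d, -0.09 for Unc119 and 2.01 for Cdh23. In bulk tissue, fewer photoreceptors and less RNA per photoreceptor cannot be told apart.

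Levels of the 45 genes ran from 1.49 to 119459 normalized reads when set per kilobase of annotated exon (mean over the 8 libraries). Genes grouped here as lipidated cargo led, apart from Arl13b at 184. Unc119, which carries rod transducin, had 119459 normalized reads per kilobase, Arl3 had 18427, Tulp1, needed for rhodopsin transport, had 11045, and Pde6d, the prenyl-binding carrier of phosphodiesterase and kinases, had 10956. Arl6, the GTPase that recruits the BBSome to membranes, came next at 6995. IFT-B genes lay between 105 (Ift80) and 2184 (Ift20), and the BBSome between 19.5 (Bbs1) and 1854 (Bbs5). IFT-A was lower, from 26.7 (Wdr19) to 275 (Ift122). The transition zone genes lay between 3.33 (Rpgrip1l) and 305 (Rpgrip1), and Cdh23, an Usher cadherin, was the lowest of all at 1.49. Subunits of 1 complex differed widely in mRNA, as the plot of levels by role shows for the BBSome. The length joins all annotated exons of a gene, whether or not its transcripts here use them, so ranks between genes are approximate. For Rpgr and Kif17 it leaves out exons that belong only to the gene sharing their feature.

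**Figure D1:**
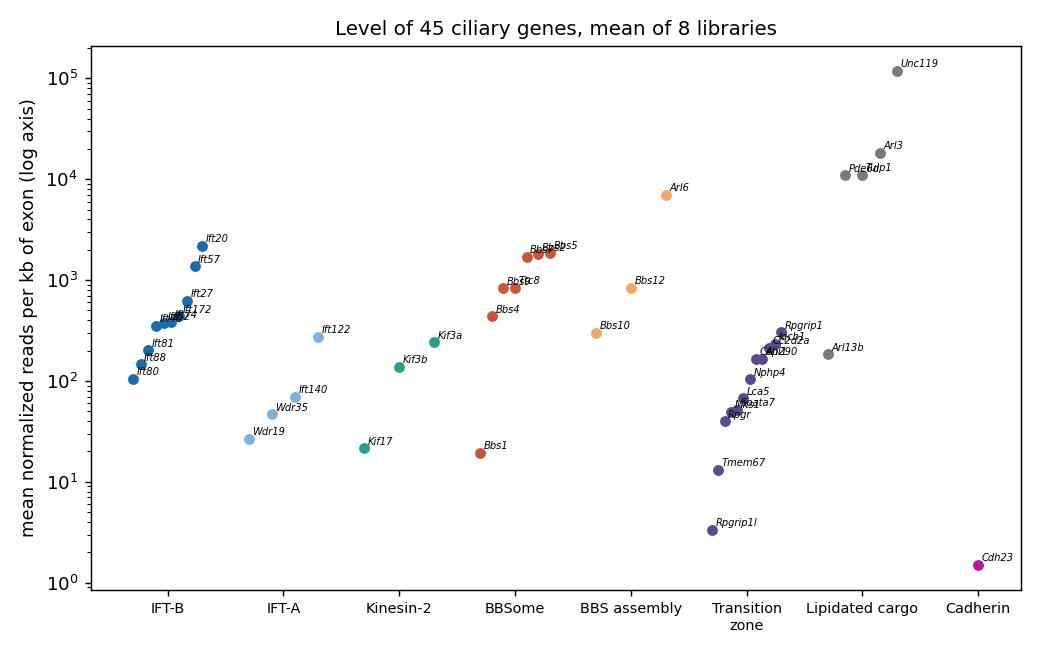
Mean normalized reads per kilobase of exon (log axis) of the 45 ciliary genes over 8 libraries, 1 point per gene, grouped by role on the horizontal axis. Of the 5 lipidated cargo genes 4 sit between 10956 and 119459, while Bbs1 sits at 19.5, below the other 6 BBSome subunits, and Cdh23 at 1.49 is lowest.

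None of the 45 genes differed between TG and WT at an adjusted p under 0.05, where 2 of 19798 features tested did (0.0101%, limma). The count was also 0 with edgeR and with DESeq2 on the recovered reads. All 45 passed the filter of a mean of at least 10 over the 8 libraries, Cdh23 only through its level in TG. The fold changes leaned downwards. In TG, 30 of the 45 lay lower (66.7%) against 52.2% of all features, and the median log2 fold change was -0.12 against -0.02. At an unadjusted p under 0.05, 6 of the 45 were lower and 1 was higher, where 2.62% of all features were lower and 2.02% higher. For 3 genes, Ttc8, Rpgr and Cep290, every TG library lay below every WT library, which held for 1.16% of all features in that direction. The genes were measured in the same 8 libraries, so these counts do not come from independent measurements. The count of 6 fell to 1 without TG 8, 2 without WT 4 and 3 without WT 3, and rose to 9 without WT 5. Counts over all features, in either direction, moved the same way. They went from 918 to 637 without TG 8, 504 without WT 4, 785 without WT 3 and 1559 without WT 5. Without WT 3 and TG 6 together, 37 of the 45 lay lower. The share of all features that lay lower in that fit was not computed. Lists of cell type markers went both ways. Of the rod markers 12 of 17 lay lower in TG (median log2 fold change -0.13), of the cone markers 7 of 10 (-0.23) and of the endothelial markers 7 of 7 (-0.51). Of the bipolar markers 7 of 10 lay higher (0.25), and of the microglial markers 10 of 10 (0.37). Higher too were 7 of 10 amacrine and ganglion (0.10), 5 of 8 Mueller glia (0.21), 7 of 12 pigment epithelium (0.10) and 8 of 9 lens markers (0.91). Of the red cell markers 3 of 5 lay lower (-0.07), and of the oligodendrocyte markers 4 of 4 tested (-0.78). The mitochondrial share of the reads was 21.9 to 27.5% in the WT libraries, against 20.4 to 22.3% in TG. The part of these differences in the lean of the ciliary genes was not tested.

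**Figure D2:**
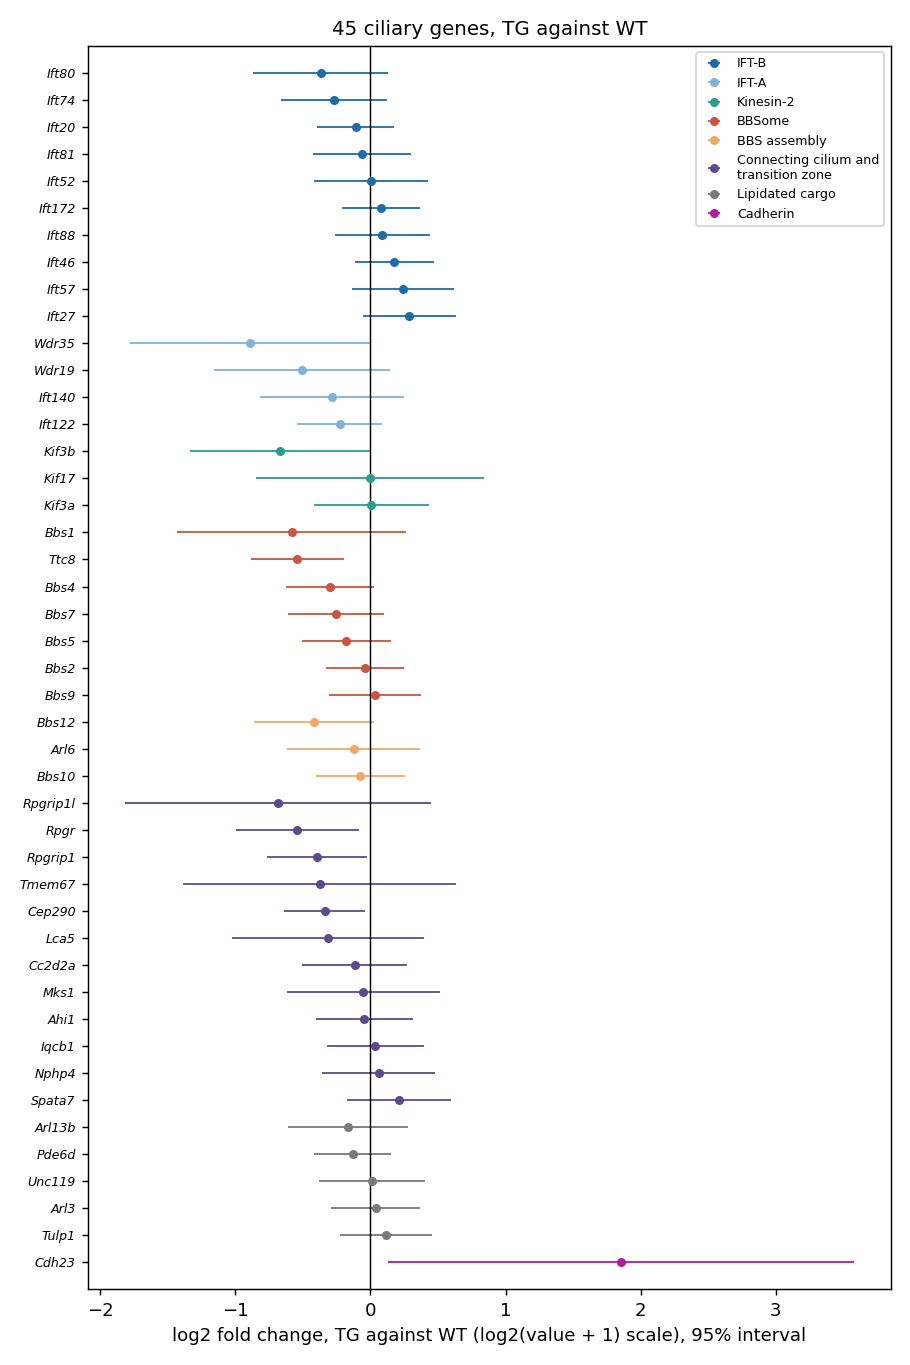
Log2 fold change, TG against WT, with its 95% interval (horizontal axis, log2(value + 1) scale) for each of the 45 ciliary genes (vertical axis), coloured by role. Most points lie left of 0, 30 of 45, and none passed the adjusted threshold.

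Within the BBSome the smallest p belonged to Ttc8, which encodes the subunit BBS8 (chromosome 12, 98920574 to 98983237, plus strand, mm10). It had 3927, 3826, 3413 and 3784 normalized reads in WT 3, 4, 5 and 7, and 3228, 2179, 2966 and 2076 in TG 2, 5, 6 and 8. All TG values were below the lowest WT value, and TG 5 and TG 8 were the furthest below. The means were 3738 ± 225 and 2612 ± 572 (SD, n = 4 each), a TG level 0.699 times that of WT. Its log2 fold change of -0.54 ± 0.16 (SE; adjusted p = 0.92, limma) did not pass. It lay between -0.65 and -0.44 without any 1 library, and its adjusted p ran from 0.557 with DESeq2 to 0.9996 over the alternatives. The 150 bases before its annotated start, shown because Ttc8 had the smallest p of the 45, held no X-box within 1 mismatch.
Ttc8 (chr12:98920424-98920573, plus strand): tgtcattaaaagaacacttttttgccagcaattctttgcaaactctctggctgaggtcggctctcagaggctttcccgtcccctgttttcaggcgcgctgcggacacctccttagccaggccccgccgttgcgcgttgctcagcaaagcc

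Rpgr and Cep290 work in the connecting cilium. Rpgr, the gene most often mutated in X-linked retinitis pigmentosa (chromosome X, 10037977 to 10216921, minus strand), had 314, 354, 350 and 343 normalized reads in WT 3, 4, 5 and 7, and 240, 250, 247 and 200 in TG 2, 5, 6 and 8. The groups were separated by a gap wider than the spread within either. Rpgr gave -0.54 ± 0.21 on the log2 scale (SE; limma adjusted p = 0.92), which stayed between -0.58 and -0.47 without any 1 library. Its feature also carries the symbol Srpx, a neighbour on the same strand whose exons overlap those of Rpgr, so reads of the 2 genes were not separated. Cep290, which links the axoneme of the connecting cilium to its membrane (chromosome 10, 100488289 to 100574840, plus strand), had 2358, 2015, 2322 and 1907 in WT and 1634, 1744, 1833 and 1570 in TG, in the same order of replicates. WT 7 and TG 6 were the closest pair across the groups. Cep290 gave -0.34 ± 0.14 on the log2 scale (SE; limma adjusted p = 0.92). A gene on the opposite strand, 4930430F08Rik, overlaps an exon of Cep290, and the strand setting of the counting was not stated.

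Set against rod RNA, the WT and TG ranges of these 3 genes overlapped. Per 1000000 reads of the 17 rod markers, which include Rp1 of the axoneme, Ttc8 stood at 478 to 603 in WT and 332 to 522 in TG. Rpgr stood at 43.5 to 55.8 and 28.2 to 45.3 on that scale, and Cep290 at 262 to 326 and 209 to 316. The mean log2 ratio to rod markers still lay lower in TG, by -0.45 for Ttc8, -0.46 for Rpgr and -0.25 for Cep290. On that scale 24 of the 45 genes lay lower in TG, with a median of -0.03, and 0 had groups without overlap. The share over all features was not computed on that scale, so the count of 0 is no result about these genes. The rod sum itself differed by -0.09 on the log2 scale between the group means, and it was highest in TG 6 and lowest in TG 5. It ran from 5524829 to 8752584 in TG, against 6350299 to 7266882 in WT. Dividing by it brings in that spread, so the overlap cannot show what rod content does to these genes. Dividing by the rod sum moves the log2 difference of every feature by the same amount. The distance between these genes and all features therefore stays as it was.

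Of the other transition zone genes, Rpgrip1 had 4284, 4993, 3439 and 4064 normalized reads in WT 3, 4, 5 and 7, and 2908, 3705, 3856 and 2405 in TG 2, 5, 6 and 8. TG 5 and TG 6 lay within the WT range. In log2 terms Rpgrip1 differed by -0.40 ± 0.17 (SE; limma adjusted p = 0.92), and Supt16 overlaps it on the opposite strand. Over the 12 connecting cilium and transition zone genes, 9 lay lower, 3 higher and 0 passed, with a median log2 fold change of -0.21. Rpgrip1l stood at -0.68 ± 0.53 (SE) from a mean of only 61.6 normalized reads in WT, and Tmem67, the meckelin membrane protein, at -0.37 ± 0.47. Values near 0 were found for Ahi1 (-0.04 ± 0.17), Mks1 (-0.05 ± 0.26), Iqcb1, the nephrocystin 5 gene (0.04 ± 0.17) and Nphp4 (0.06 ± 0.19). Lca5, which encodes lebercilin, stood at -0.31 ± 0.33, Cc2d2a at -0.12 ± 0.18, and Spata7 was highest of the 12 at 0.21 ± 0.18 (all SE).

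**Figure D3:**
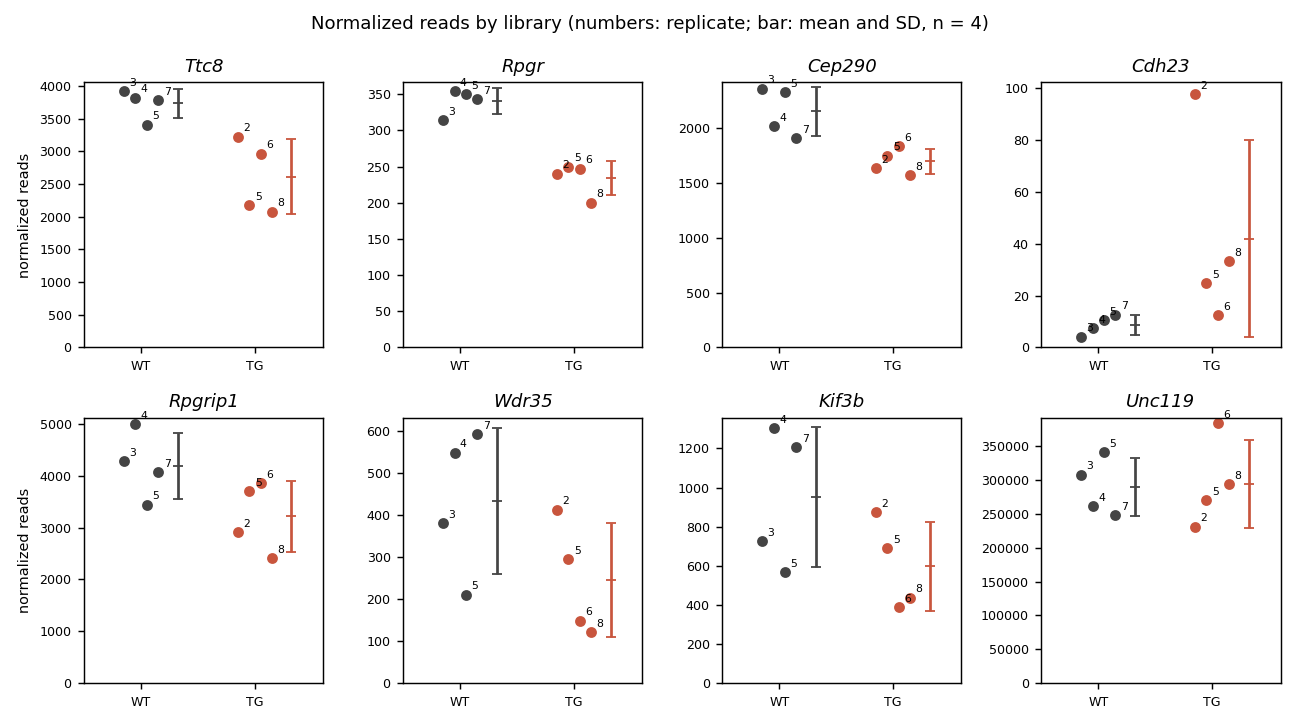
Normalized reads (vertical axes, from 0) in each library for the 7 ciliary genes with an unadjusted p under 0.05 and for Unc119, the most abundant one. Points are libraries labelled by replicate, and bars give the mean and SD (n = 4). The groups do not overlap for Ttc8, Rpgr and Cep290 and overlap for the other 5.

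All 4 IFT-A genes lay lower in TG, with a median log2 fold change of -0.40, while IFT-B had 4 lower and 6 higher and a median of 0.04, and 0 of the 14 passed. The difference between the complexes was not tested. Wdr35, the IFT121 subunit of IFT-A, had 381, 548, 210 and 592 normalized reads in WT 3, 4, 5 and 7, and 412, 295, 148 and 121 in TG 2, 5, 6 and 8. WT 3 and WT 5 fell within the TG range, and TG 2 and TG 5 within the WT range. The Wdr35 fold change was -0.89 ± 0.41 on the log2 scale (SE; limma adjusted p = 0.92). With males only (3 WT and 2 TG libraries) it was -0.02. TG 6 and TG 8, the lowest 2 libraries, came from the TG females, and WT 7, the highest, from the WT female. A fit with sex as a term gave -0.77. Wdr19, the IFT144 subunit, followed a like order of libraries, with 238 in WT 5 and 155 in TG 8 as the lowest of each group, and stood at -0.51 ± 0.30 (SE) and at -0.00056 with males only. Ift140 stood at -0.29 ± 0.25 and Ift122 at -0.23 ± 0.15, the latter with 2012 in TG 8 against 2707 to 3130 in the other 7 libraries.

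In IFT-B the gene with the smallest p lay higher. Ift27, a small GTPase that helps the BBSome leave the cilium, had 1575, 1490, 1974 and 1393 normalized reads in WT 3, 4, 5 and 7, and 1672, 1839, 2281 and 2049 in TG 2, 5, 6 and 8. Only WT 5 reached into the TG range. For Ift27 the log2 difference was 0.29 ± 0.16 (SE; limma adjusted p = 0.92), and 0.07 with males only. Ift57 stood at 0.24 ± 0.17, with the highest value in TG 5 (5542), and Ift46 at 0.18 ± 0.14. Values nearer 0 were 0.09 ± 0.16 for Ift88, 0.08 ± 0.14 for Ift172, 0.0025 ± 0.20 for Ift52 and -0.06 ± 0.17 for Ift81. Ift80 (-0.37 ± 0.23), Ift74 (-0.27 ± 0.18) and Ift20, the subunit that also sits at the Golgi (-0.11 ± 0.13), lay lower.

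Kinesin-2 drives these trains outwards. Its motor subunit gene Kif3b had 727, 1303, 568 and 1208 normalized reads in WT 3, 4, 5 and 7, and 874, 689, 387 and 437 in TG 2, 5, 6 and 8. WT 3 and WT 5 lay within the TG range, so the groups overlapped. Kif3b gave -0.67 ± 0.31 on the log2 scale (SE; limma adjusted p = 0.92), and -0.07 with males only. Its partner Kif3a stood at 0.0051 ± 0.20. Kif17, the homodimeric kinesin-2, had 63.4 to 144 in WT and 59.3 to 129 in TG, and its feature also carries the symbol Sh2d5, an overlapping gene on the same strand.

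In the rest of the BBSome, 5 of the 6 genes lay lower and Bbs9 lay at 0.03 ± 0.16 (SE). Bbs4 stood at -0.30 ± 0.15, Bbs7 at -0.26 ± 0.17, Bbs5 at -0.18 ± 0.15, Bbs2 at -0.04 ± 0.13 and Bbs1, with 64.2 to 222 normalized reads, at -0.58 ± 0.39. Bbs7 had 13257 in WT 7 against 8920 to 9051 in WT 3, 4 and 5, and its log2 fold change without WT 7 was the nearest to 0 of the 8 values with 1 library left out, -0.12. The assembly genes lay lower as well. Bbs12, part of the chaperonin complex that builds the BBSome, had 2683, 2147, 2607 and 1804 in WT 3, 4, 5 and 7, and 1304, 2562, 1626 and 1573 in TG 2, 5, 6 and 8. TG 5 lay with the higher WT libraries and the other 3 TG libraries below all of WT. For Bbs12 this came to -0.42 ± 0.21 on the log2 scale (SE; limma adjusted p = 0.92). Its exons overlap Gm43439 on the same strand and Cetn4 on the opposite one. Opposite-strand genes also overlap exons of Bbs4 (Adpgk), Arl6 (4930547E14Rik), Ift57 (Gm15518), Ift88 (Ift88os) and Tmem67 (Gm11842 and Rbm12b2). Bbs10, the other chaperonin gene, stood at -0.07 ± 0.15. Arl6 stood at -0.13 ± 0.23, with both the highest (TG 5, 21383) and the lowest (TG 8, 8846) library in TG.

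The genes grouped as lipidated cargo lay close to 0, with 2 lower and 3 higher of 5. Pde6d, with the smallest p of the 5, had 27043, 21563, 25928 and 25162 normalized reads in WT 3, 4, 5 and 7, and 18768, 23809, 25658 and 22970 in TG 2, 5, 6 and 8. Only TG 2 lay below the WT range. TG minus WT came to -0.13 ± 0.13 on the log2 scale (SE; limma adjusted p = 0.92), and the 95% interval ran from -0.42 to 0.15. Unc119 had 307938, 261509, 341750 and 248252 in WT and 231074, 270506, 384720 and 293727 in TG, in the same order, and both extremes were TG libraries. The difference was 0.01 ± 0.18 (SE), and its interval ran from -0.38 to 0.41. Tulp1 stood at 0.12 ± 0.16, Arl3 at 0.04 ± 0.15, and Arl13b, the ciliary GTPase that activates Arl3, at -0.17 ± 0.21. In TG 6, which also had the highest rod sum, Unc119, Tulp1 and Arl3 were each at their highest of all 8 libraries. The part of rod content in that was not tested.

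Cdh23, a cadherin of hair cells, was the 1 gene of the 45 higher in TG at an unadjusted p under 0.05. Its mean was 8.68 in WT and 41.9 in TG, so it entered the test only through the group in which it was higher, and its count is no support for a difference. It had 4.09, 7.37, 10.6 and 12.7 normalized reads in WT 3, 4, 5 and 7, and 97.5, 24.7, 12.3 and 33.2 in TG 2, 5, 6 and 8. TG 6 lay within the WT range, and TG 2 was the highest library. Cdh23 gave 1.85 ± 0.80 on the log2 scale (SE; limma adjusted p = 0.92), 1.33 without TG 2 and 2.67 with males only. At these counts the log2(value + 1) scale understates folds, and the precision is limited by depth.

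**Figure D4:**
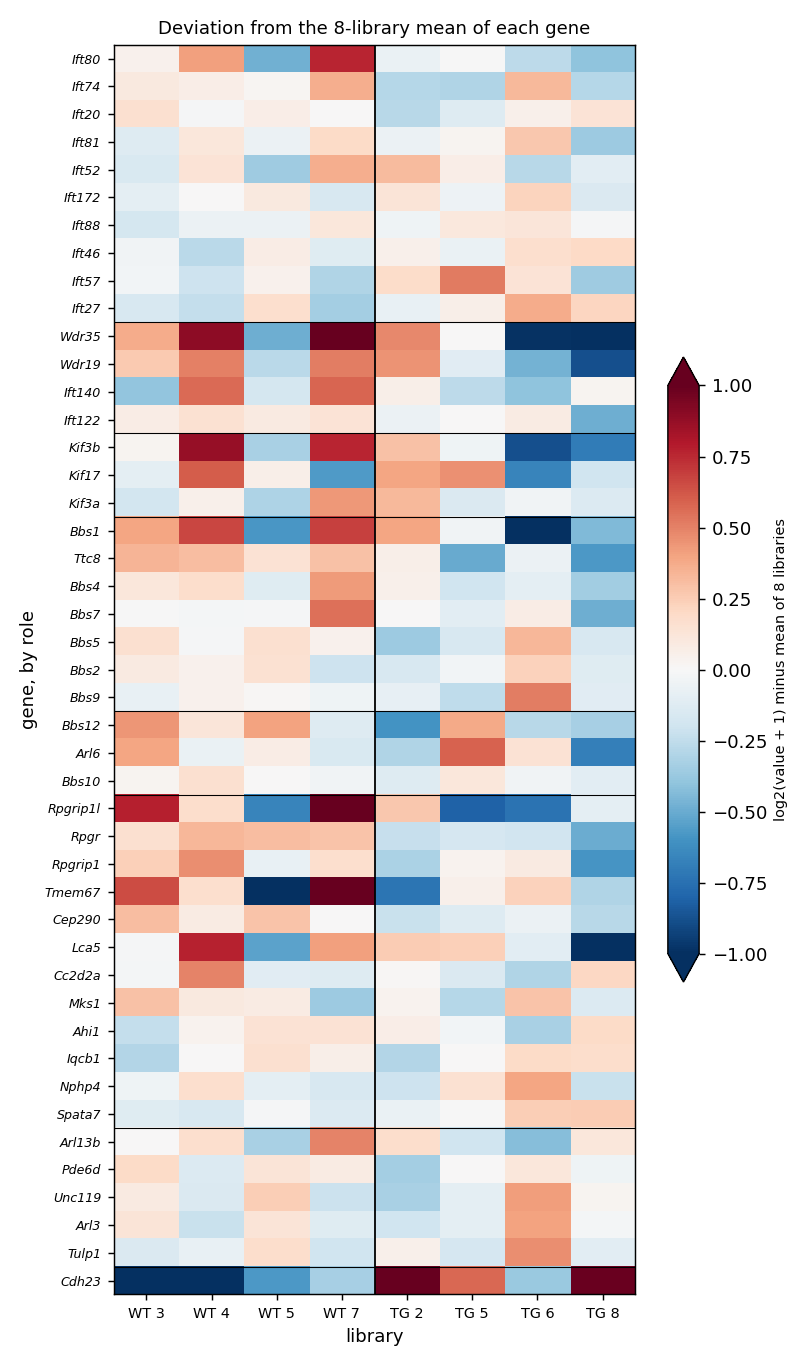
Log2(value + 1) of each ciliary gene minus its mean over the 8 libraries (colour, limited to 1 either way), with genes by role on the vertical axis and libraries on the horizontal axis. Low-level genes such as Wdr35, Kif3b and Bbs1 are high in WT 4, WT 7 and TG 2. They are low in WT 5, TG 6 and TG 8, while Unc119, Arl3 and Tulp1 are highest in TG 6.

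Libraries of the same group differed from each other in a way that ran through many of these genes, as the map of deviations shows. Among the 18 genes with a mean under 1000, the median deviation from the 8-library mean was 0.42 in WT 7, 0.17 in WT 4 and 0.22 in TG 2, against -0.29 in WT 5, -0.28 in TG 6 and -0.17 in TG 8. Among the other 27 genes the order was different, with 0.09 in WT 5 and 0.13 in TG 6 above, and -0.15 in TG 8 below. WT 7 was the highest WT library for 10 of the 18 low-level genes and TG 6 the highest TG library for 16 of the 27 others. Over all features tested, WT 7 was the highest WT library for 28.1% and TG 6 the highest TG library for 29.0%. TG 8 was the lowest TG library for 16 of all 45, while 25.3% of all features tested had it lowest. The median SD within groups was 0.42 in WT and 0.36 in TG for the low-level genes, and 0.16 and 0.25 for the others. Endothelial markers summed to 9917 in WT 7, the highest of any library, and 3055 in TG 6, the lowest. Their part in these differences was not tested.

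Other ciliary genes also leaned downwards. They were measured in the same libraries and listed with earlier results known, so they are no independent support. Of 84 measured, 82 were tested and 57 lay lower in TG (69.5%, against 52.2% of all features). With limma 0 passed, and the median log2 fold change was -0.11. At an unadjusted p under 0.05 there were 7 lower and 2 higher, where 2.62% of all features were lower and 2.02% higher. DESeq2 on the recovered reads called 1 of them, the axonemal dynein gene Dnah17 (log2 fold change -4.38 ± 1.07, SE, limma), whose groups overlapped. Among 12 genes of the rod axoneme and basal body, 10 lay lower. Mak, a kinase that limits ciliary length, stood at -0.63 ± 0.23 and Rp1, the microtubule protein of the outer segment axoneme, at -1.08 ± 0.39. With males only Mak stood at -0.16 and Rp1 at -0.27. Of 21 further transition zone and outer segment transport genes, 14 lay lower, with Cep164, which docks the basal body, at -0.60 ± 0.20 and Tctn3 at -0.38 ± 0.21. Tctn3 had 326 to 368 normalized reads in WT and 233 to 311 in TG, without overlap, and stood at -0.24 with males only. Further IFT and motor genes were split, 9 lower and 6 higher, with Wdr60 at -0.23 ± 0.20 and Kif7 at -1.17 ± 1.09. Kif7 was at 0 in TG 6, and its log2 fold change was 0.28 without WT 3 and TG 6, 0.74 with males only and 0.09 at the highest without any 1 library. Of 6 further BBS genes 5 lay lower, Lztfl1 among them at -0.32 ± 0.20, while Trim32, a ubiquitin ligase, stood at 0.33 ± 0.14 and at 0.19 with males only.

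The other Usher genes were also split, 4 lower and 5 higher of 9. At an unadjusted p under 0.05 (limma), 2 were lower and 1 was higher. Pcdh15 lay lower at -0.68 ± 0.29 (SE), or -0.20 with males only. Ush1g, the scaffold protein Sans that binds in the same complex as Cdh23 in hair cells, had 59.4 to 120 normalized reads in WT and 146 to 246 in TG. The groups did not overlap, which held for 500 of the 19798 features tested when both directions are counted. The log2 fold change of 1.11 ± 0.32 (SE; adjusted p = 0.92, limma) did not pass. Genes of motile cilia, which photoreceptors lack, were measured at low levels, and 11 of 14 tested lay lower, among them Cfap43 at -0.96 ± 0.60, in a feature that also carries Itprip. Of the 5 RFX factors tested 4 lay lower, with Rfx1 at -0.59 ± 0.27 and Rfx2 at -0.73 ± 0.55, or -0.29 and -0.16 with males only. The 12 ciliary genes with an X-box match had a median log2 fold change of -0.08 and 9 lay lower, and the 29 without one had -0.11 and 17 lay lower.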

How the data were processed

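The deposited values are read counts per gene that the authors divided by DESeq2 size factors, so the unit is a normalized signal, per the file headers. The submitters' processing notes name FastQC, Picard, SAMtools, STAR 2.4.0, DESeq2 and mm10. The sources used here do not give the counter, its strand setting or the annotation. Poly-A selected RNA was made into strand-marking libraries, per the labels' protocols. In each column 100% of values were whole multiples of 1 read (within 0.01), so reads were recovered. Unmapped sample columns numbered 0.

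TG and WT (4 libraries each) were compared with limma 3.58.1 (R 4.3.3) on log2(value + 1), with a trended prior variance, over the 19798 features whose mean reached 10. P-values were adjusted by Benjamini-Hochberg over all of them, at a threshold of 0.05. Errors of fold changes are standard errors. The procedure was tested on simulated data. Alternatives were TMM scaling, other pseudocounts and filters, edgeR 4.0.16 and DESeq2 1.42.0 on recovered reads, a term for sex or for eye, the male libraries alone, and leaving out libraries. Exon lengths and overlaps came from GENCODE M21 (GRCm38), promoters from RefSeq. The promoter windows of Ift80, Ift81, Ift122 and Tmem67 were not analysed here.

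The genes, roles and lists were chosen with earlier results of these data known. Genes given in every library were those with an unadjusted p under 0.05, those without overlap, the smallest p of each role, and the highest and lowest level. From each further ciliary list, up to 2 genes with the smallest p are named. The result of 1 such gene is not reported here.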

Additional observations from a re-analysis of the deposited data

Results flagged for a closer look

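In 3 of the 90 groups of 4 libraries formed by the 45 genes, 1 library stood far from the other 3, with a gap to its nearest neighbour that, as a share of the group's range, passed Dixon's 95% critical value. Chance flags about 1 in 20 such groups. Ift74 had 1262 normalized reads in TG 6 against 816 to 829 in the other TG libraries. Bbs7 had 13257 in WT 7 against 8920 to 9051. Cc2d2a had 2027 in WT 4 against 1308 to 1412.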

How the results depend on the processing

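No paired analysis was run, because WT and TG mice differ in genotype and nothing in the labels pairs a WT retina with a TG one. No member was called under any of the 19 alternatives, and the lowest adjusted p was 0.557 (Ttc8, DESeq2). Members lower in TG numbered 28 to 37, and the median log2 fold change ran from -0.16 to -0.07. The share of all features that lay lower was not computed for the alternatives. Members lower at an unadjusted p under 0.05 numbered 6, also with a pseudocount of 5, no filter and DESeq2. They numbered 4 with TMM scaling, a pseudocount of 0.5, a minimum mean of 50, edgeR or without WT 3 and TG 6, 8 with eye as a term, 2 with sex as a term, 3 with males only, and 1 to 9 without 1 library. Over all features, 2 were called, but 1 with a pseudocount of 0.5, no filter, a minimum mean of 50 or sex as a term, 4 with males only, 16 with DESeq2 (edgeR gave 2), and 1 to 3 without 1 library. DESeq2 called 1 other ciliary gene. Features at an unadjusted p under 0.05 in either direction (limma) numbered 918, and 504 to 1559 without 1 library. The cause of these changes was not tested.

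The log2 fold change kept its sign under every alternative that was run for 26 of the 45 members. Among them were Ttc8, Rpgr, Cep290, Rpgrip1, Wdr35, Kif3b and Cdh23, the last not tested at a minimum mean of 50. These 7 were named for an unadjusted p under 0.05 (limma) in the same libraries, so a kept sign is no separate support. Wdr35 stood at only -0.02 and Kif3b at -0.07 with males only. The sign turned for 19, all uncalled. With males only it was 0.0070 for Ift81, 0.021 for Bbs1, -0.16 for Bbs9, 0.0095 for Arl6, 0.24 for Kif17, -0.038 for Nphp4, -0.10 for Iqcb1, 0.18 for Lca5, 0.039 for Ahi1, 0.040 for Arl13b, -0.16 for Arl3, -0.048 for Tulp1 and -0.27 for Unc119. Without WT 3 and TG 6 it was -0.0031 for Ift172, -0.15 for Bbs9, -0.045 for Kif3a, 0.18 for Kif17, -0.063 for Nphp4, -0.11 for Iqcb1, -0.039 for Arl3, -0.045 for Tulp1 and -0.091 for Unc119. With sex as a term it was -0.016 for Bbs9, -0.033 for Kif3a, 0.20 for Kif17, -0.022 for Iqcb1 and -0.019 for Unc119, and with eye -0.055 for Ift52, -0.021 for Bbs9, -0.099 for Kif3a and 0.11 for Kif17. edgeR gave -0.0044 for Ift52, -0.0099 for Kif3a and 0.013 for Kif17, and DESeq2 gave -0.0062 for Ift52, -0.011 for Kif3a and 0.0078 for Kif17. Leaving out 1 library gave -0.12 to 0.12 for Ift52, -0.16 to 0.049 for Ift81, -0.12 to 0.0076 for Bbs2, -0.13 to 0.12 for Bbs9, -0.34 to 0.082 for Arl6, -0.10 to 0.15 for Kif3a, -0.19 to 0.22 for Kif17, -0.060 to 0.15 for Nphp4, -0.056 to 0.14 for Iqcb1, -0.13 to 0.056 for Ahi1, -0.20 to 0.031 for Cc2d2a, -0.19 to 0.035 for Mks1, -0.089 to 0.11 for Arl3, -0.017 to 0.20 for Tulp1 and -0.12 to 0.12 for Unc119. For genes with a mean under 1000 the median standard error was 0.28 against 0.16 above it, which limits what a difference in the low-level genes can show.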
